A study of Mus musculus with 12 samples.

Results

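The genes examined here are the 7 genes of the creatine kinase system in the mouse heart, Ckb, Ckm, Ckmt1, Ckmt2, Slc6a8, Gatm and Gamt. They were chosen by symbol from the 38293 Ensembl genes of 2 tables of read counts, and all 7 had 1 identifier present in both tables. Of the 7, 6 passed the filter on low counts in each table, and Ckmt1 did not. RNA was sequenced from the left ventricle of 12 mice in 4 groups of 3, WT sham, WT IR, Zeb2 WT IR and Zeb2 cTg IR. All 4 groups are labelled with the strain C57Bl/6J, which the titles of WT sham spell C75Bl/6J and the genotype labels C57B/6J. WT sham and WT IR mice were adults that had sham surgery or ischaemia-reperfusion (IR), in which the left anterior descending coronary artery was tied for a limited time and then released, and the IR hearts were taken 14 days later. Zeb2 cTg mice carry a Cre recombinase driven by the Myh6 (αMHC) promoter, active in cardiomyocytes, together with a Zeb2 transgene behind a floxed stop cassette at Rosa26, and Zeb2 WT mice are their littermates. Both of these groups had IR and were taken 14 days later, so that neither holds an uninjured heart. The methods of the study name the remote zone, the sample labels give the left ventricle, and the design text names the infarct with its border zone. Each table holds 1 of the 2 comparisons and was normalized by itself, so that levels of different tables are given side by side and were not tested against each other.

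Creatine kinases move a phosphate between ATP and creatine, and the phosphocreatine they form buffers ATP in cells with a high and changing demand for energy. Dimers of the muscle (M, gene Ckm) and brain (B, gene Ckb) subunits act in the cytosol near myofibrils and ion pumps, while the sarcomeric (Ckmt2) and ubiquitous (Ckmt1) mitochondrial isoforms sit between the mitochondrial membranes and use ATP as it is exported. The adult ventricle is known for a high share of M subunits and of the sarcomeric mitochondrial isoform, and the B subunit is more abundant in the embryonic heart, in brain and in smooth muscle. GATM makes the precursor guanidinoacetate from arginine and glycine, and GAMT methylates this precursor to creatine, mostly in kidney and liver. Cardiomyocytes import creatine through the transporter SLC6A8.

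In the build GRCm38, Ckm (ENSMUSG00000030399) lies at chr7:19404776-19422841 on the plus strand, Ckb (ENSMUSG00000001270) at chr12:111669361-111672338 on the minus strand, Ckmt2 (ENSMUSG00000021622) at chr13:91853387-91876885 on the minus strand and Ckmt1 (ENSMUSG00000000308) at chr2:121357714-121363737 on the plus strand. Gatm (ENSMUSG00000027199) lies at chr2:122594467-122611303 on the minus strand, Gamt (ENSMUSG00000020150) at chr10:80258151-80261012 on the minus strand and Slc6a8 (ENSMUSG00000019558) at chrX:73673150-73682502 on the plus strand. Of the stretches of 75 bases in the exons of Ckb, 5.82% also occur in Gm12892, which held between 0 and 33 counts per library. The other 6 genes shared none with another gene. Genes on the opposite strand share 451 exon bases with Ckm, 84 with Ckmt2 and 10 with Ckmt1, and they held at most 19, 2 and 2 counts per library in these stranded libraries.

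Start regions from RefSeq (GRCm38.p6), reaching from 250 bases before to 50 bases after a transcript start, were found for 6 of the 7 genes, all but Slc6a8. Those of the 3 kinase genes that passed the test in a comparison are shown, on the strand of the gene, to let their composition be compared. Capitals mark each match on either strand to the E-box bound by ZEB factors (CACCTG or CAGGTG), to the half-site of oestrogen-related receptors (AAGGTCA or TGACCTT) or to a TATA box written as TATANA or TNTATA.
Ckm, chr7:19410844-19411143, plus strand: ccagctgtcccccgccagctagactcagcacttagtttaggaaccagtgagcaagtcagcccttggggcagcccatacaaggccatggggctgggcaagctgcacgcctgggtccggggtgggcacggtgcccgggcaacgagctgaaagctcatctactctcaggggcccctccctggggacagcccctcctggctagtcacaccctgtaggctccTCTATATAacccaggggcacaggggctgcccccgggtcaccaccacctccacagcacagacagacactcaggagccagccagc
Ckb, chr12:111672289-111672588, minus strand: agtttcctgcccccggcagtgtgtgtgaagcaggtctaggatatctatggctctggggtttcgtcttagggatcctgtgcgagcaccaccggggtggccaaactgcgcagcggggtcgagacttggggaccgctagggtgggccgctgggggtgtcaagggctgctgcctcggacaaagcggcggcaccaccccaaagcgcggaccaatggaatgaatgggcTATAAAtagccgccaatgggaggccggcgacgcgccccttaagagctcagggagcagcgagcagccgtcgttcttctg
Ckmt2, chr13:91876836-91877135, minus strand: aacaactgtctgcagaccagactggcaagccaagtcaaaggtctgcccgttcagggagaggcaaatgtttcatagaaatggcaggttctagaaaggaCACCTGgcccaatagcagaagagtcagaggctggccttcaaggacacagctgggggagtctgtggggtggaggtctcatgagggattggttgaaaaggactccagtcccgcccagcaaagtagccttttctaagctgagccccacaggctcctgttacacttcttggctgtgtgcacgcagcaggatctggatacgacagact
The windows of Ckm and Ckb held 64.7% and 63.0% G and C, against 53.7% in that of Ckmt2 and a median of 52.7% over all 32817 windows. The window of Ckb held 22 CG dinucleotides, while those of Ckm and Ckmt2 held 7 and 4. A TATA match on the sense strand began 31 bases before the start in Ckm and 28 bases before it in Ckb, and the Ckmt2 window held none. A match on either strand is present in 24.7% of all windows. The ZEB E-box occurred 1 time in Ckmt2, 153 bases before the start, and 1 time in the window of Gatm, 71 bases before the start, whereas Ckm, Ckb, Gamt and both windows of Ckmt1 held none. It occurs in 20.2% of all windows. The half-site of oestrogen-related receptors occurred in 1 of the 7 windows, one of the 2 of Ckmt1, and in 4.72% of all windows. These letters describe the windows and do not show binding.

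Counts on genes summed to between 20215781 and 36816818 per library, with a mitochondrial share of 60.6% to 73.5%. Levels are given as TMM-normalized counts per 1e6 counts (CPM), where 1 CPM stood for between 17.2 and 37.8 counts. Zeb2 (ENSMUSG00000026872), which checks the labels, was not higher where the label reads Zeb2 cTg IR than in Zeb2 WT IR, with a log2 fold change of -0.07 ± 0.12 (SE, n = 3 per group; edgeR adjusted p = 0.750), and these hearts are therefore named by their label throughout. Whether the labels hold, or the transcript of the transgene is not counted on Zeb2, was not tested, and every value of the second comparison carries this limit. Cardiomyocyte transcripts such as Ttn, Myh6 and Actc1 were abundant in all libraries, and the 12 cardiomyocyte markers summed to between 45600 and 68494 CPM. In these samples of whole tissue, fewer cells of a type and less RNA per cell cannot be told apart.

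Per kilobase of exon, the levels of the kinase genes differed by orders of magnitude. In WT sham hearts the order was Ckmt2 with 461 ± 22.4 CPM per kb (mean ± SD, n = 3), Ckm with 202 ± 15.1, Slc6a8 with 11.5 ± 1.71, Ckb with 3.11 ± 0.197, Gamt with 0.674 ± 0.0552 and Gatm with 0.603 ± 0.136 CPM per kb. In each of the 4 groups the 3 libraries of Ckmt2, Ckm, Slc6a8 and Ckb stood in this order without overlap. Gamt and Gatm overlapped in WT sham, in WT IR and in the libraries labelled Zeb2 cTg IR, whereas in Zeb2 WT IR Gatm lay between 0.714 and 1.29 CPM per kb and Gamt between 0.252 and 0.584. The union of exons of Ckb is 2895 bases long and its principal transcript 1472, and with principal transcripts the WT sham means were 6.12 CPM per kb for Ckb and 215 for Ckm.

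Ckmt1, the ubiquitous mitochondrial isoform, was at the limit of detection. It held between 0 and 3 counts per library, 15 counts over the 12 libraries, and 0 counts in 4 of them. Ckmt2 held between 11417 and 30238 counts. With 3 counts taken as the least that can be told from 0, and lower counts set to 3, Ckmt1 came to at most 0.0156% of Ckmt2 per kilobase. This floor covers counting error only and gives no upper limit with a stated confidence. No fold change and no ratio of the mitochondrial isoforms was compared between groups, since both sides of each comparison were at this floor.

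**Figure D1:**
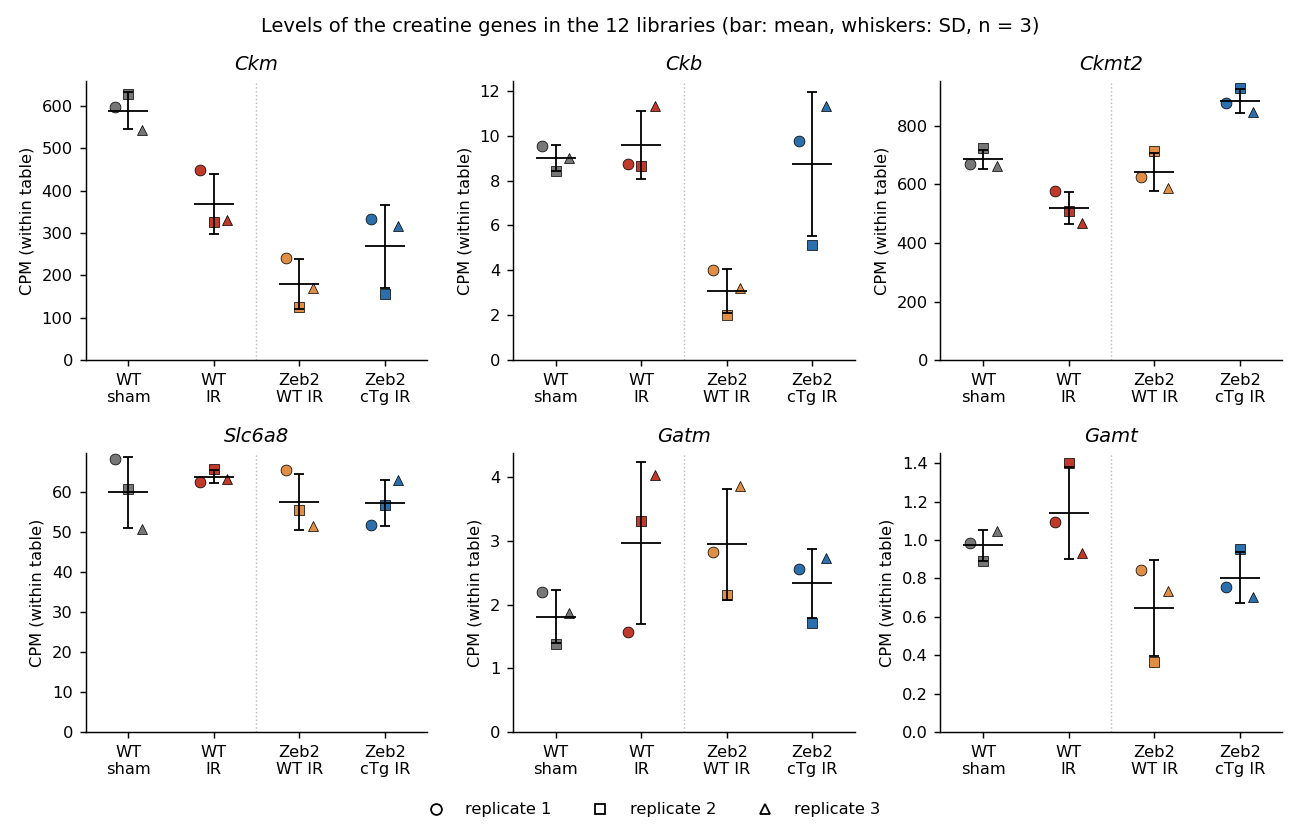
Levels in CPM (vertical axes, starting at 0) of the 6 genes that passed the filter, in the 3 libraries of each group (symbols give the replicate number), with the mean and SD. A dotted line parts the tables, which were normalized separately. Ckm and Ckmt2 are lower in every WT IR than in every WT sham library, and Ckb is higher in every library labelled Zeb2 cTg IR than in every Zeb2 WT IR library.

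The first comparison, WT IR against WT sham, asks which transcripts of the injured ventricle had changed at 14 days. Both abundant kinase genes fell, Ckm by 0.68 and Ckmt2 by 0.40 on the log2 scale, while Ckb, the transporter and the synthesis genes did not pass the test. Of the 6 genes tested, 2 were lower and 0 higher at an adjusted p under 0.05 (edgeR's quasi-likelihood test with Benjamini-Hochberg adjustment over all genes tested). Over all 13756 genes tested, 9.74% were lower, 11.0% were higher and 20.8% passed in either direction. CPM ranges stood apart, with no overlap between groups, for 2 of the 6 genes (33.3%) and for 39.8% of all genes tested, so that this share is near the background.

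Ckm, the muscle subunit of the cytosolic enzyme, stood at 597, 630 and 542 CPM in the WT sham libraries and at 450, 325 and 331 CPM in WT IR. All 3 injured hearts were below all 3 sham hearts, with replicate 1 of WT IR nearest to them. This is a log2 fold change of -0.68 ± 0.14 (SE, n = 3 per group; edgeR adjusted p = 0.0118), which is 0.625 of the sham level. Without WT IR replicate 2 or without WT sham replicate 2 it no longer passed (log2 fold changes -0.59 and -0.64, edgeR adjusted p = 0.0619 and 0.0734), and a single fit of all 12 libraries gave an edgeR adjusted p of 0.117.

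Ckmt2, the sarcomeric mitochondrial isoform, stood at 668, 724 and 664 CPM in WT sham and at 579, 510 and 469 CPM in WT IR. The groups did not overlap here either, and the log2 fold change was -0.40 ± 0.11 (SE, n = 3 per group; edgeR adjusted p = 0.0312), or 0.758 of the sham level. Of the 6 fits with 1 library fewer, 5 lost this call, those without each WT sham library and WT IR replicates 2 and 3, with edgeR adjusted p between 0.0649 and 0.148, and without WT IR replicate 1 it passed (edgeR adjusted p = 0.00178). Of the 12 cardiomyocyte markers, 3 passed the test as lower (Tnni3, Myl3 and Ryr2) and 0 as higher. They summed to between 58296 and 64942 CPM in WT sham and between 45600 and 58323 CPM in WT IR, ranges that overlapped narrowly, and their median log2 fold change was -0.24. Most of these sums was Ttn, with means of 39233 and 33753 CPM (log2 fold change -0.22, edgeR adjusted p = 0.521). With library sizes set on these markers, under which the median over all genes was 0.29 in place of 0.01, Ckm kept a log2 fold change of -0.41 (edgeR adjusted p = 0.0153) and Ckmt2 one of -0.13 (edgeR adjusted p = 0.253). Fibroblast and macrophage markers were higher, 7 of 7 and 6 of 6, with summed levels of 493 to 892 CPM in WT sham and 1812 to 4530 CPM in WT IR for fibroblasts and of 69.5 to 79.9 and 94.3 to 178 CPM for macrophages. The part of cell content in these results was not tested.

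Ckb, the brain subunit, stood at 9.56, 8.43 and 9.02 CPM in WT sham and at 8.74, 8.64 and 11.3 CPM in WT IR. The groups overlapped, and WT IR replicate 3 was the highest. The log2 fold change was 0.08 ± 0.12 (SE, n = 3 per group; edgeR adjusted p = 0.657), and without WT IR replicate 3 it was -0.05. With a correction for the GC content of transcripts, which is 61.7% for Ckb and had a Spearman correlation of -0.292 with the log2 fold change across 13609 genes of these 6 libraries, Ckb reached 0.38 (edgeR adjusted p = 0.0493).

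Relative to Ckm, Ckb nevertheless stood higher in each injured heart. Per kilobase, Ckb was at 1.61%, 1.35% and 1.67% of Ckm in WT sham and at 1.96%, 2.67% and 3.44% in WT IR. These groups did not overlap. Such percentages, and the shares of the kinase sum below, rest on the union of exons. Principal transcripts would raise those of Ckb, with WT sham means of 6.12 CPM per kb for Ckb and 215 for Ckm. The fold of the Ckb to Ckm ratio between groups does not depend on these lengths. The mean log2 ratio differed by 0.77, a 1.70-fold higher ratio, with a two-sided exact permutation p = 0.1, which is the smallest that 3 against 3 allows. The log2 fold changes of the single genes, given above, were -0.68 for Ckm and 0.08 for Ckb. The mitochondrial kinases relative to the cytosolic ones (the sum of Ckmt1 and Ckmt2 over the sum of Ckb and Ckm, per kilobase) stood at 2.16, 2.22 and 2.36 in WT sham and at 2.47, 2.99 and 2.68 in WT IR. The log2 ratio was 0.27 higher, a 1.21-fold difference, again without overlap (exact permutation p = 0.1). Of the summed level of the 4 kinase genes per kilobase, Ckmt2 made up 69.2% ± 0.960 in WT sham and 73.0% ± 1.88 in WT IR, Ckm 30.3% ± 0.962 and 26.3% ± 1.92, and Ckb 0.468% ± 0.0487 and 0.702% ± 0.181 (mean ± SD, n = 3).

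**Figure D2:**
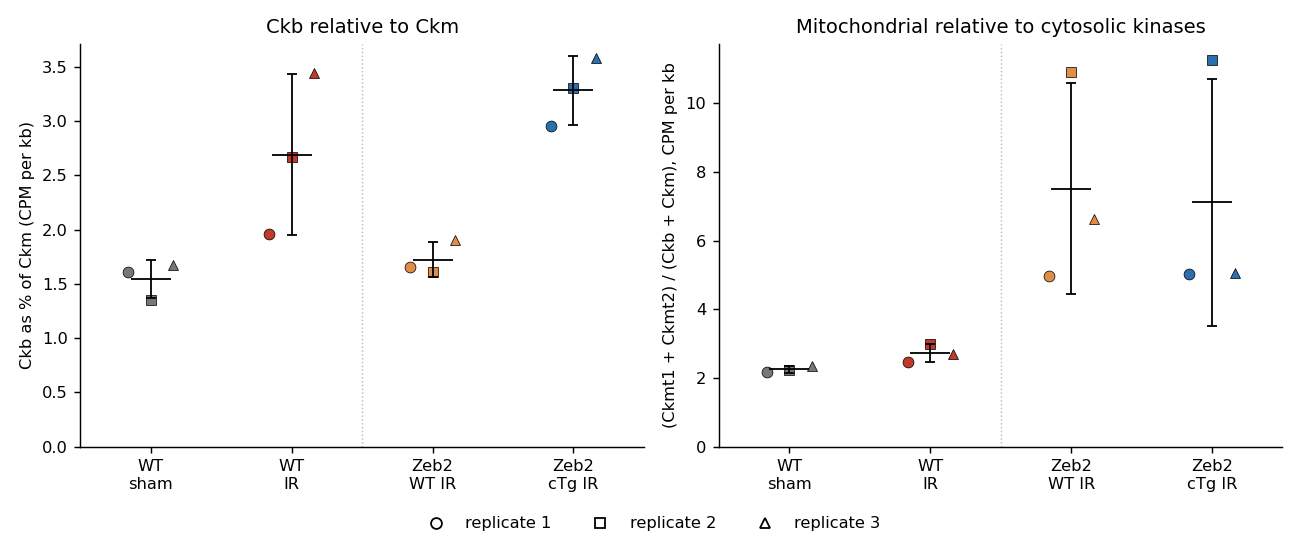
Left, Ckb as a percentage of Ckm, and right, mitochondrial over cytosolic kinases, both from CPM per kb of exon (vertical axes start at 0), per library with mean and SD (n = 3). Ckb relative to Ckm is higher in the second group of each table without overlap, at 1.96% to 3.44% against 1.35% to 1.67% and at 2.96% to 3.58% against 1.61% to 1.90%. On the right, replicate 2 of both groups of the second table stands at 10.9 and 11.3, above the others of that table.

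Gatm, which makes the precursor guanidinoacetate, had few counts, between 32 and 125 per library of this table. It stood at 2.19, 1.38 and 1.86 CPM in WT sham and at 1.56, 3.30 and 4.02 CPM in WT IR. Replicates 2 and 3 of WT IR were above all sham libraries and replicate 1 was within their range. The log2 fold change was 0.72 ± 0.33 (SE, n = 3 per group; edgeR adjusted p = 0.146), and without WT IR replicate 1 it was 1.02 (edgeR adjusted p = 0.00213). With no filter on low counts the value was the same and the edgeR adjusted p was 0.0247. These were the only passes, 1 of the 6 fits with 1 library fewer and 1 of the 10 other alternatives. The 6 fits lay between 0.46 and 1.02 (edgeR adjusted p up to 0.420). Gamt, the methyltransferase of the second step, stood between 0.889 and 1.05 CPM in WT sham and between 0.932 and 1.40 CPM in WT IR, with a log2 fold change of 0.26 ± 0.23 (SE, n = 3 per group; edgeR adjusted p = 0.446). Slc6a8, the creatine transporter, stood at 68.4, 60.9 and 50.7 CPM in WT sham and at 62.6, 65.7 and 63.3 CPM in WT IR. The WT IR libraries all lay within the range of the sham libraries, with a log2 fold change of 0.09 ± 0.11 (SE, n = 3 per group; edgeR adjusted p = 0.584).

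The second comparison, the libraries labelled Zeb2 cTg IR against Zeb2 WT IR, asks how hearts labelled as carrying the transgene differ from those of littermates after the same injury. Ckb was 2.83-fold higher and was the 1 gene of the 6 tested that passed. Ckm and Ckmt2 stood at 1.49-fold and 1.38-fold and did not pass, and the transporter and synthesis genes did not pass either. Over all 13018 genes tested, 2.14% were higher, 1.51% were lower and 3.64% passed in either direction. Ranges of CPM did not overlap between the groups for 2 of the 6 genes, Ckb and Ckmt2, and for 26.2% of all genes tested.

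Ckb stood at 3.995, 2.02 and 3.23 CPM in Zeb2 WT IR and at 9.76, 5.15 and 11.3 CPM in the libraries labelled Zeb2 cTg IR, from between 50 and 403 counts. All 3 of the latter were above all of the former, and replicate 2 was the lowest of each group. The log2 fold change was 1.50 ± 0.32 (SE, n = 3 per group; edgeR adjusted p = 0.0375). Of the 6 fits with 1 library fewer, 4 lost this call, those without Zeb2 WT IR replicate 2 (1.28, edgeR adjusted p = 0.0922) or 3 (1.53, 0.147) and without replicate 1 (1.41, 0.113) or 3 (1.27, 0.135) of the libraries labelled Zeb2 cTg IR. Log2 fold changes in this table were larger for transcripts richer in G and C (Spearman correlation 0.552 across 12892 genes). With the correction for GC content Ckb had a log2 fold change of 0.93 (edgeR adjusted p = 0.00926), smaller than without it and still past the threshold.

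Ckm stood at 242, 126 and 171 CPM in Zeb2 WT IR and at 332, 157 and 318 CPM in the libraries labelled Zeb2 cTg IR. Levels of the groups overlapped because replicate 2 of the latter was below 2 of the Zeb2 WT IR libraries. The log2 fold change was 0.58 ± 0.30 (SE, n = 3 per group; edgeR adjusted p = 0.267), and without that replicate it was 0.85 (edgeR adjusted p = 0.0320). That was the 1 fit that passed of the 6 with 1 library fewer, which lay between 0.38 and 0.85 (edgeR adjusted p up to 0.595). Of the 10 other alternatives, between 0.34 and 0.59, 1 passed (edgeR adjusted p = 0.0283), as given under the dependence on processing. As for Ckb, replicate 2 was the lowest library of each group. These 2 libraries also had the highest shares of mitochondrial reads of the table, 73.5% and 70.6%, against 60.6% to 67.4% in the other 4, and the part of this in the result was not tested.

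Ckmt2 stood at 624, 715 and 589 CPM in Zeb2 WT IR and at 877, 930 and 849 CPM in the libraries labelled Zeb2 cTg IR. Every one of these was above every Zeb2 WT IR library, and replicate 2, the lowest for both cytosolic kinases, was the highest of each group for Ckmt2. The log2 fold change was 0.46 ± 0.13 (SE, n = 3 per group; edgeR adjusted p = 0.0751). It passed in 0 of the 6 fits with 1 library fewer (edgeR adjusted p between 0.0606 and 0.269) and in 5 of the 10 other alternatives. Among those under which it passed were DESeq2 (adjusted p = 0.0247), no filter on low counts (edgeR adjusted p = 0.0309) and a single fit of all 12 libraries (edgeR adjusted p = 0.0179). With RLE size factors it did not pass (edgeR adjusted p = 0.0834).

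**Figure D3:**
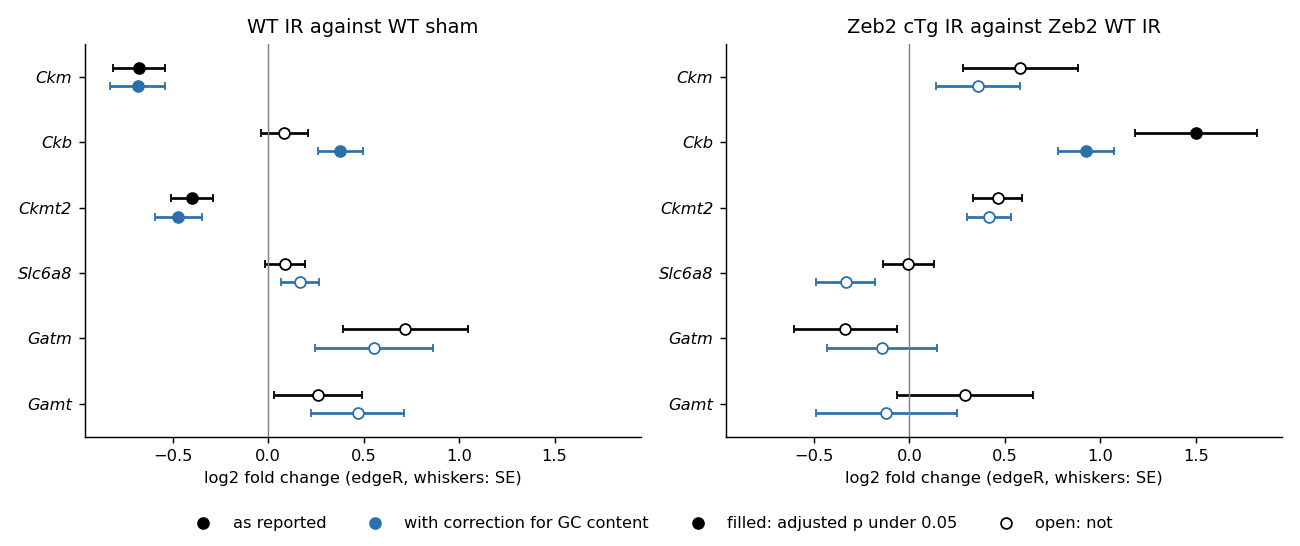
Log2 fold changes (horizontal axis) with SE of the 6 genes in WT IR against WT sham (left) and in the libraries labelled Zeb2 cTg IR against Zeb2 WT IR (right), as reported in black and with a correction for GC content in blue, filled where the adjusted p is under 0.05. Ckm and Ckmt2 are below 0 on the left and above 0 on the right, where neither passes, and Ckb moves from 1.50 to 0.93 with the correction on the right.

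Per kilobase, Ckb was at 1.66%, 1.61% and 1.90% of Ckm in Zeb2 WT IR and at 2.96%, 3.31% and 3.58% in the libraries labelled Zeb2 cTg IR. Ratios of the groups did not overlap, and replicate 2 did not stand apart in them. The log2 ratio differed by 0.93, a 1.90-fold higher ratio, with a two-sided exact permutation p = 0.1, the smallest possible. With the correction for GC content, which is 61.7% for Ckb and 54.0% for Ckm, the difference was 0.59. The ratio of mitochondrial to cytosolic kinases was 4.97, 10.9 and 6.63 in Zeb2 WT IR and 5.03, 11.3 and 5.06 in the libraries labelled Zeb2 cTg IR. Both ranges overlapped and the log2 means differed by -0.11 (exact permutation p = 1), a sign that turned without Zeb2 WT IR replicate 2 (0.20) and without replicate 1 (0.09) or 3 (0.08) of the libraries labelled Zeb2 cTg IR. Ckm made up 12.5% ± 4.13 of the summed kinase level in Zeb2 WT IR and 13.3% ± 4.70 in the libraries labelled Zeb2 cTg IR (mean ± SD, n = 3). The WT IR libraries of the other table gave 26.3% ± 1.92, also 14 days after IR. This share does not depend on the normalization. The tables hold different mice and were not tested against each other, and the cause of the difference between them was not tested.

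Other cell types that make these isoforms were examined through their markers. Of the smooth muscle markers, which mark a cell type known to use Ckb, 1 of 3 tested passed as higher in this comparison (Acta2, log2 fold change 1.67, edgeR adjusted p = 0.00463), while Myh11 and Tagln had log2 fold changes of 0.20 and 0.02 (edgeR adjusted p = 0.545 and 0.965). The 4 markers of the list summed to between 31.3 and 41.1 CPM in Zeb2 WT IR and between 54.7 and 89.6 CPM in the libraries labelled Zeb2 cTg IR, a difference carried by Acta2, whose mean was 16.9 and 53.8 CPM. Markers of nerve and glia summed to between 1.76 and 3.19 CPM over both groups, with 1 of 5 tested and 0 called, and Th was at 0 in all 12 libraries. The 9 markers of skeletal muscle, the other tissue rich in Ckm, summed to between 0.404 and 3.17 CPM over the 12 libraries, with 0 of 9 tested, while Ckm stood between 126 and 630 CPM. Cardiomyocyte markers summed to between 57511 and 61551 CPM in Zeb2 WT IR and between 65167 and 68494 CPM in the libraries labelled Zeb2 cTg IR, 2 of 12 passed as higher (Tnnt2 and Mybpc3) and their median log2 fold change was 0.22. Most of these sums was Ttn, with means of 42201 and 46484 CPM (log2 fold change 0.14, edgeR adjusted p = 0.642). Of the 12 markers, 10 had a log2 fold change above 0, and Myl2 had one of -0.38 (edgeR adjusted p = 0.124). With library sizes set on the 12 markers, under which the median over all genes was -0.18 in place of 0.01, Ckb kept a log2 fold change of 1.31 (edgeR adjusted p = 0.0466). Under this setting Ckmt2 had one of 0.28 (edgeR adjusted p = 0.131) and Ckm one of 0.38 (edgeR adjusted p = 0.422). Of the fibroblast markers, 3 of 7 were lower, from summed levels of 873 to 1967 CPM to 508 to 622 CPM. Endothelial, macrophage and adipocyte markers gave 0 calls among 5, 6 and 1 tested. The part of smooth muscle, cardiomyocyte and fibroblast content in the level of Ckb was not tested.

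Gatm stood at 2.82, 2.14 and 3.86 CPM in Zeb2 WT IR and at 2.55, 1.72 and 2.72 CPM in the libraries labelled Zeb2 cTg IR, which overlapped (log2 fold change -0.34 ± 0.27, SE, n = 3 per group; edgeR adjusted p = 0.463). Gamt stood between 0.364 and 0.843 CPM and between 0.702 and 0.954 CPM, from between 9 and 25 counts, with a log2 fold change of 0.29 ± 0.36 (SE, n = 3 per group; edgeR adjusted p = 0.635) that was -0.12 with the correction for GC content. Slc6a8 stood at 65.5, 55.6 and 51.7 CPM and at 51.9, 56.9 and 63.2 CPM, means of 57.6 ± 7.11 and 57.3 ± 5.67 (SD, n = 3), with a log2 fold change of -0.01 ± 0.13 (SE, n = 3 per group; edgeR adjusted p = 0.986) that was -0.33 with the correction for GC content (edgeR adjusted p = 0.232). Over the 4 groups, of 2 tables normalized separately, the mean of Slc6a8 lay between 57.3 and 63.9 CPM. With library sizes set on cardiomyocyte markers its log2 fold change was 0.38 in WT IR against WT sham (edgeR adjusted p = 0.0568). In the second comparison it was -0.19 under that setting (edgeR adjusted p = 0.383).

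Genes around the creatine system were taken from 4 lists of 35 genes, of which 30 were tested in the first and 31 in the second comparison. In WT IR against WT sham, 5 of 30 were lower and 0 higher, with a median log2 fold change of -0.18 against 0.01 over all genes tested, of which 9.74% were lower. Ak1 encodes the cytosolic adenylate kinase that turns 2 ADP into ATP and AMP. Slc25a4 encodes the adenine nucleotide carrier that exports ATP from mitochondria to the mitochondrial kinase. Transcripts of both fell, and so did those of Esrra, Srf and Tead1, whose products are transcription factors known to act on mitochondrial and muscle genes. Ak1 stood between 153 and 162 CPM in WT sham and between 111 and 136 CPM in WT IR (log2 fold change -0.40 ± 0.10, SE, n = 3 per group; edgeR adjusted p = 0.0196). Slc25a4 stood between 1102 and 1299 CPM and between 761 and 1058 CPM (-0.50 ± 0.15; edgeR adjusted p = 0.0427). Esrra stood at 31.6 ± 4.12 CPM and at 17.9 ± 3.77 CPM (SD, n = 3) (-0.82 ± 0.15; edgeR adjusted p = 0.00797). Srf stood between 22.1 and 28.7 CPM and between 15.7 and 20.2 CPM (-0.60 ± 0.13; edgeR adjusted p = 0.0129). Tead1 stood between 89.3 and 95.8 CPM and between 68.8 and 78.1 CPM (-0.32 ± 0.08; edgeR adjusted p = 0.0218). For none of these 5 genes, named because they passed the test, did the groups overlap. The same holds for 39.8% of all genes tested. The call of Srf was lost with the correction for GC content (-0.15, edgeR adjusted p = 0.327). Of the 6 fits with 1 library fewer, Esrra passed in 5, Ak1 in 3, Srf in 3, Slc25a4 in 1 and Tead1 in 1. With library sizes set on cardiomyocyte markers Ak1, Slc25a4, Srf and Tead1 were no longer called and Esrra was (-0.55).

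The count of 5 moved with single libraries, to 16 without WT IR replicate 1, to 3 without WT IR replicate 3 or WT sham replicate 3, to 1 without WT IR replicate 2 or WT sham replicate 1 and to 0 without WT sham replicate 2. Calls over all genes moved the same way, from 1519 higher and 1340 lower to 2542 and 2437 without WT IR replicate 1 and to 226 and 195 without WT sham replicate 2. By list, adenylate kinases and AMP gave 1 of 8 tested (median -0.18), mitochondrial exchange of nucleotides and phosphate 1 of 6 (-0.20), supply of arginine and methyl groups 0 of 7 (-0.09) and the factors 3 of 9 (-0.31), all as lower. Among the genes with the highest level per kilobase in each list, the AMP-activated kinase subunit Prkaa2 had a log2 fold change of -0.19 (edgeR adjusted p = 0.179), the outer-membrane channel Vdac1 one of -0.21 (0.180), ornithine aminotransferase Oat one of 0.03 (0.841), the S-adenosylmethionine synthetase Mat2a one of -0.17 (0.140), the coactivator Ppargc1a one of -0.22 (0.251) and Mef2a one of -0.12 (0.355), and none of them passed.

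In the libraries labelled Zeb2 cTg IR against Zeb2 WT IR, 0 of 31 genes of the lists were higher and 2 lower, with a median log2 fold change of 0.10 against 0.01 over all genes tested, of which 2.14% were higher and 1.51% lower. Ak4, an adenylate kinase of the mitochondrial matrix, stood between 17.4 and 18.1 CPM in Zeb2 WT IR and between 8.95 and 11.6 CPM in the libraries labelled Zeb2 cTg IR (-0.78 ± 0.13, SE, n = 3 per group; edgeR adjusted p = 0.0179). Tead1, whose product binds MCAT elements of muscle promoters, stood between 64.5 and 69.0 CPM and between 36.2 and 44.7 CPM (-0.71 ± 0.12; edgeR adjusted p = 0.0166). The groups did not overlap for either gene, nor for 26.2% of all genes tested. Tead1 was the 1 gene of the lists called in both comparisons. Of the other genes called in the first comparison, Esrra had a log2 fold change of 1.15 ± 0.34 (edgeR adjusted p = 0.0871), Srf of 0.63 ± 0.17 (0.0684), Ak1 of 0.63 ± 0.18 (0.0859) and Slc25a4 of 0.33 ± 0.13 (0.166), and none of these passed. The count of 2 rose to 9 without replicate 2 of the libraries labelled Zeb2 cTg IR, was 1 without Zeb2 WT IR replicate 2 and was 0 without Zeb2 WT IR replicate 3 or replicate 1 or 3 of the libraries labelled Zeb2 cTg IR. Over all genes, 278 higher and 196 lower calls became 1594 and 825 without replicate 2 of those labelled Zeb2 cTg IR and 50 and 48 without Zeb2 WT IR replicate 3. By list, the medians were -0.03 for adenylate kinases and AMP (8 tested, 1 lower), 0.12 for mitochondrial exchange (6 tested), 0.04 for arginine and methyl groups (8 tested) and 0.25 for the factors (9 tested, 1 lower). Prkaa2 (-0.07), Vdac1 (0.11), Oat (-0.01), Mat2a (0.10), Ppargc1a (0.34) and Mef2a (-0.09) did not pass, with edgeR adjusted p between 0.248 and 0.956.

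**Figure D4:**
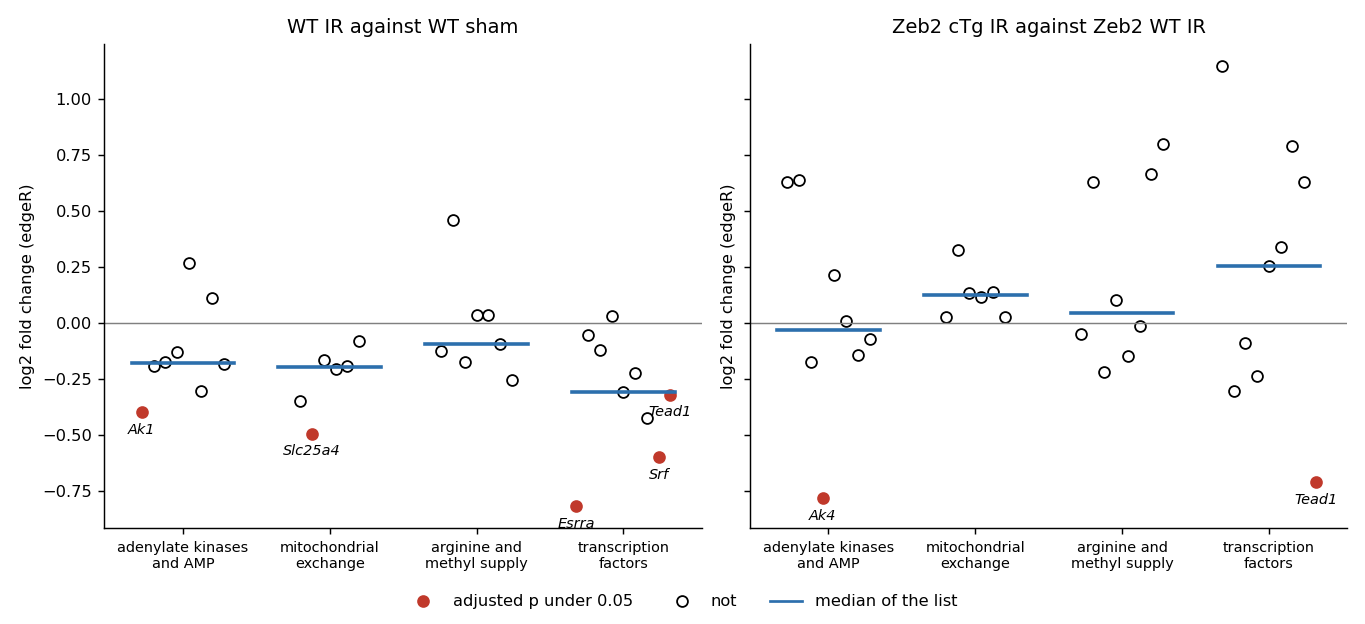
Log2 fold changes (vertical axis) of the genes of 4 lists around the creatine system, 1 circle per gene tested, with the median of each list as a blue line, in WT IR against WT sham (left) and the libraries labelled Zeb2 cTg IR against Zeb2 WT IR (right). Red circles have an adjusted p under 0.05, which are 5 of 30 on the left and 2 of 31 on the right, all below 0.

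The genes whose levels ran most like those of the called kinases were found by the root mean square difference of log2 CPM over the 12 libraries, each gene centred on its mean in each table, among 11963 named genes. Ckm had a root mean square deviation from its own means of 0.46. The nearest genes were Dmpk, a kinase of striated muscle (0.09), Rexo1 (0.09), Myo18a (0.09) and Vars2 (0.09), and their longest transcripts have a GC content of between 57.7% and 60.8%. Ckb, with a deviation of 0.61, was nearest to Pdlim7 (0.12), Nudt22 (0.16) and the ribosomal protein genes Rps9 (0.17) and Rps15 (0.18), with a GC content of between 52.0% and 62.4%. Ckmt2, with a deviation of 0.24, was nearest to Tmod1, which caps thin filaments (0.04), Amigo1 (0.06), Acad11 (0.07) and Dhdh (0.07), with a GC content of between 42.0% and 52.4%. The kinases were not among each other's nearest genes. Ckm and Ckmt2 differed by 0.38, Ckb and Ckm by 0.46 and Ckb and Ckmt2 by 0.56. The 12 libraries share their tables and depths, and these differences are a description with no test.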

How the data were processed

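RNA was sequenced from 12 left ventricles in 4 groups of 3. The authors sequenced stranded single-end reads, aligned them with STAR 2.4.2a and counted them per gene with HTSeq 0.6.1 (versions from the submitters' processing notes, build mm10), and the deposited values are raw counts in 2 tables, each with 38293 genes in 6 libraries and not normalized. The labels and the methods differ on the kit, mRNA or total RNA, and on the region sampled. All columns were used.

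The 7 members, the lists and the tests were chosen with earlier results of these data known. Each table was fitted in R 4.3.3 with edgeR 4.0.16: TMM, filterByExpr (minimum count 10, minimum total 15), the quasi-likelihood test, and a call at 0.05 after Benjamini-Hochberg adjustment across every gene tested. Log2 CPM used a prior count of 2. Levels per kilobase use the union of exons of GENCODE M21 (GRCm38), in which 36345 of the identifiers have a symbol. Isoform ratios were tested by exact permutation over libraries (scipy 1.17.1). The correction for GC content is a loess fit (span 0.5) of each library's deviations on the GC content of the longest transcript, used as an offset. Alternatives were RLE or cardiomyocyte-marker size factors, no mitochondrial genes, other filters, DESeq2 1.42.0 and those named in the text. Named genes are the 7 members, genes of the lists called in a comparison or among the 2 highest per kilobase of their list, and the 4 nearest genes of each called member, leaving out predicted and mitochondrial genes. The TATA letters were chosen after the start regions had been read. Fits were tested on simulated data. Between 5706340 and 11618213 counts per library fell outside the mitochondrial genome, and the floor of 3 counts covers counting error only, while SDs and SEs are over libraries. Figures were drawn with matplotlib 3.10.9.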

Additional observations from a re-analysis of the deposited data

How the results depend on the processing

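The direction of Ckm and Ckmt2 in both comparisons, and of Ckb in the libraries labelled Zeb2 cTg IR, was the same under every alternative tried, and their calls were not. The counts of calls among the creatine genes (2 in WT IR against WT sham, 1 in the libraries labelled Zeb2 cTg IR against Zeb2 WT IR) and among the 35 pathway genes (5 and 2) changed as follows, and the cause was not tested. In WT IR against WT sham, library sizes from cardiomyocyte markers gave 1 creatine and 2 pathway genes, all 12 libraries in 1 fit 1 and 3, no filter on low counts 3 and 10 and the GC correction 3 and 10. Calls over all genes, 1519 higher and 1340 lower as reported, moved too. They were 2855 and 227 with cardiomyocyte markers and 950 and 474 with all 12 libraries in 1 fit. With no filter they were 1951 and 1617, and with the GC correction 1182 and 1586. In the other comparison, no filter gave 2 creatine and 9 pathway genes, DESeq2 2 and 8, all 12 libraries in 1 fit 2 and 9, and cardiomyocyte markers 4 pathway genes. Over all genes, its 278 higher and 196 lower calls became 1029 and 524 with no filter and 671 and 424 with DESeq2. All 12 libraries in 1 fit gave 1265 and 667, and cardiomyocyte markers 180 and 875. The rise in calls was thus not particular to the listed genes. Leaving out 1 library gave between 0 and 3 creatine and between 0 and 16 pathway genes in the first comparison, and between 0 and 2 and between 0 and 9 in the second. Same-numbered libraries of a table have deviations that correlate at -0.03, 0.01 and -0.01 in the WT table and at 0.13, 0.26 and -0.04 in the Zeb2 table, with 0 and 3 of 6 libraries correlating best with their own number, so that the numbers were not taken as a pairing. With the replicate block, the libraries labelled Zeb2 cTg IR gave 3 creatine genes (Ckb, Ckm and Ckmt2, edgeR adjusted p = 0.00272, 0.0283 and 0.0225) and 9 pathway genes, and with the replicate block and the GC correction 2 (Ckb and Ckmt2, the latter with edgeR adjusted p = 0.0353) and 5. Over all genes the block alone gave 1164 higher and 649 lower calls, and the block with the GC correction 430 and 306. In WT IR against WT sham the replicate block with the GC correction gave 9 pathway genes, and the block alone changed no call of a creatine gene. Over all genes the former setting gave 1106 higher and 1380 lower calls in that comparison. The Ckb to Ckm ratio was higher under every alternative tried, with a log2 difference of 0.59 in place of 0.93 under the GC correction in the second comparison, and the mitochondrial to cytosolic ratio in that comparison, -0.11 as reported, was 0.063 under the GC correction and between -0.50 and 0.20 with 1 library left out. The added length of the principal transcript, chosen after the data had been seen, moved neither that ratio nor the one in WT IR hearts beyond the spread of the libraries. The planned ratio of Ckmt1 to Ckmt2 was not run, because Ckmt1 was at its floor.

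Signs that turned belong to log2 fold changes that did not pass. In WT IR against WT sham with 1 library left out, Ckb lay between -0.051 and 0.16, Slc6a8 between -0.030 and 0.19 and Oat between -0.064 and 0.10, and Oat was -0.074 with the GC correction and -0.073 with the replicate block as well. With cardiomyocyte markers Ak4 was 0.14, Prkaa2 0.084, Vdac1 0.064, Mat2a 0.10, Ppargc1a 0.037 and Mef2a 0.15. In the other comparison with 1 library left out, Slc6a8 lay between -0.079 and 0.095, Prkaa2 between -0.20 and 0.033, Oat between -0.048 and 0.011 and Mat2a between -0.081 and 0.25. The GC correction, and the replicate block with it, gave -0.12 and -0.16 for Gamt, -0.33 and -0.35 for Slc6a8 (which kept its sign), 0.14 and 0.14 for Prkaa2, 0.079 and 0.077 for Oat, 0.11 and 0.11 for Mef2a, and with the block -0.019 for Srf. With cardiomyocyte markers Vdac1 was -0.070 and Mat2a -0.078. Slc6a8 was 0.0059 with no filter and 0.0084 with all 12 libraries in 1 fit, where Oat was 0.0014. At between 0 and 3 counts per library, Ckmt1 is below what this depth can compare, and Gamt rests on 9 to 53 counts.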
